A study of Rattus norvegicus with 19 samples.

Results

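The voltage-gated sodium and calcium channel genes were taken from the deposited table of TAPE-gene pairs by symbol: Scn followed by a digit, or Cacna, Cacnb or Cacng followed by a digit. This gave 40 of 17715 gene symbols. TAPEs (transcriptionally active putative enhancers) are intergenic sites of open chromatin with transcription from both strands, and 136 of 27538 TAPEs lay under 200 kb from the start of a channel gene. They formed 183 TAPE-gene pairs with 37 of the channel genes. No TAPE lay that close to Cacna1c or Cacna1s.

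Total RNA-seq was made from primary neuron cultures of embryonic day 18 Sprague-Dawley rat cortex, hippocampus and striatum, kept for 11 days in vitro and then treated for 1 h with KCl, which depolarizes neurons, or with vehicle (neurobasal media). The 19 libraries comprised 3 per region and treatment, except for 4 vehicle libraries in striatum. KCl was 25 mM by the sample labels and 10 mM by the series text, and cortex vehicle replicate 3 carries a striatal tissue label although its title is cortical. That library was counted as cortex, and its Cacna2d2 and Cacng4 RNA (-0.64 and 1.54 SD units, a scale explained with the genes) lay with the other cortical libraries. The study's methods call the libraries of a group biological replicates, and p-values of KCl tests measure the spread between them. Comparisons between regions pool vehicle and KCl libraries as separate units, so their spread includes the treatment. Whether same-numbered vehicle and KCl libraries share a culture is not specified.

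Voltage-gated sodium channels carry the rising phase of the action potential through a large pore-forming alpha subunit, and small beta subunits set its gating and its place in the membrane. Voltage-gated calcium channels let in the calcium that releases transmitter and signals to the nucleus, through an alpha1 pore with cytoplasmic beta and extracellular alpha2delta subunits. Most Cacng genes expressed in brain encode regulators of AMPA-type glutamate receptors rather than calcium channel subunits proper.

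The RNA level of a TAPE is given in CPKM, the reads per kilobase of TAPE, scaled to the sequencing depth of the library (RPKM). Library totals ran from 46.4 M to 72.5 M reads , of which 281 to 584 per library fell in the 136 TAPEs near channel genes. The median of these TAPEs held 17 reads over all 19 libraries (14 over all TAPEs) and had a mean CPKM of 0.0091 (0.00707 over all TAPEs). A mean CPKM of at least 0.05, the minimum for a test, was reached by 13 of the 136 TAPEs (9.56%) and by 1870 of 27538 (6.79%). Of the values above 0 in the 136 TAPEs, 73.6% were even numbers of reads, so that reads may come in mates of a fragment and are not independent molecules.

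Marker genes went with the titles. All 7 glutamatergic markers were higher in cortex than in striatum, and all 6 measured GABAergic markers and 9 of 10 medium spiny neuron markers were lower. Prox1 and Neurod1, markers of hippocampal granule cells, were highest in hippocampus. All 6 astrocyte markers were also higher in cortex than in striatum (median difference 1.78 SD units), and 5 of 6 were higher in hippocampus than in striatum. The part of these differences in cell makeup in the channel values was not tested, and fewer cells of a type cannot be told apart from less RNA per cell.

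RNA of the channel genes themselves was read as a profile over the 19 libraries, in SD units with a mean of 0 and an SD of 1 for each gene. A profile was available for 39 of the 40 channel genes, all except Cacna2d1. It gives the order of the libraries for a gene but neither its level nor a fold change, so profiles of different genes are compared only by their order. Between cortex and hippocampus 24 of 39 channel genes passed an adjusted p of 0.05 in an exact permutation test, 8 higher in cortex (20.4% of all 16733 genes did so) and 16 lower (21.2%). Between cortex and striatum 16 were higher in cortex (26.6% of all genes) and 16 lower (26.4%). Between hippocampus and striatum 20 were higher in hippocampus (30.0%) and 9 lower (30.1%). All 3 comparisons were passed by 22 channel genes (56.4%), against 24.4% of all genes, and 14 of the 22 were highest in hippocampus (35.9% of channel genes, 9.66% of all genes), 5 in striatum (12.8%, 9.12%) and 3 in cortex (7.69%, 5.65%). The direction was the same among vehicle libraries alone for all 24, 32 and 29 calls. These libraries are part of those tested, so their direction was largely fixed by the calls and is no separate check. Among named genes, calls that were lost in some fits without 1 library were those of Cacna1b (passed in 5 of 12) and Cacng7 (9 of 12) between cortex and hippocampus, Cacna2d4 between cortex and striatum (3 of 13), and Cacna1a (7 of 13) and Cacng4 (5 of 13) between hippocampus and striatum.

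**Figure D1:**
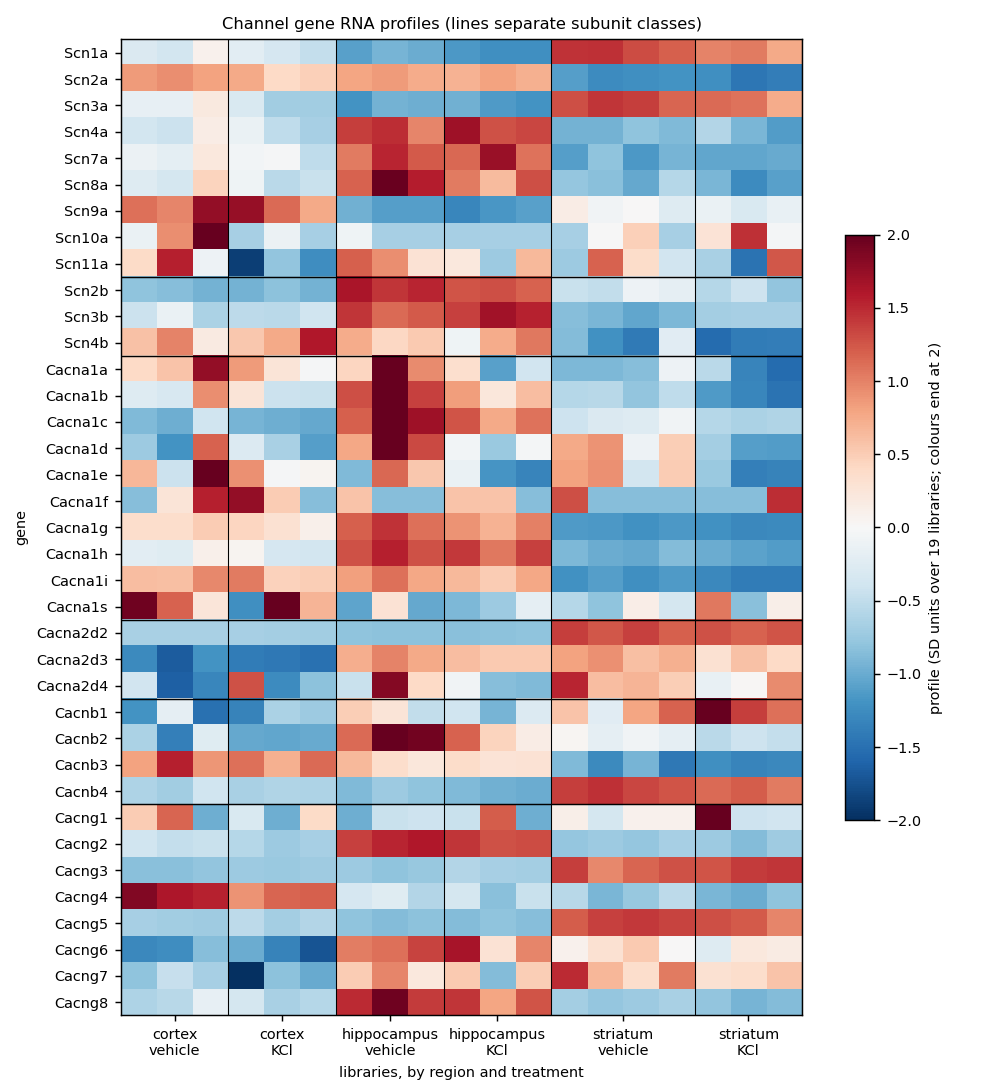
RNA profiles of 37 channel genes in 19 libraries, in SD units over the libraries of each gene (red high, blue low, colours end at 2). Rows are grouped by subunit class and columns by region and treatment. Most rows change at the borders between regions, and fewer do so between vehicle and KCl.

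Among the sodium channel alpha subunits, the genes took opposite orders. Scn1a, which encodes the main sodium channel of fast-spiking interneurons, ran from 0.76 to 1.46 SD units in striatum (median 1.20), from -0.47 to 0.08 in cortex (median -0.31) and from -1.23 to -0.93 in hippocampus (median -1.12). Its regions did not overlap, and the difference between hippocampus and striatum was -2.28 SD units (adjusted p = 0.0015, exact permutation test, n = 6 and 7, the smallest value the test can give). Scn3a, the alpha subunit best known from embryonic brain, had the same order, from 0.74 to 1.42 in striatum (median 1.17), -0.69 to 0.19 in cortex (median -0.23) and -1.20 to -0.94 in hippocampus (median -1.05).

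Scn2a, the alpha subunit of early axon initial segments in excitatory neurons, was instead lowest in striatum. Its profile lay between -1.45 and -1.11 there (median -1.23), between 0.41 and 0.93 in cortex (median 0.79) and between 0.70 and 0.85 in hippocampus (median 0.77). Cortex and hippocampus overlapped and differed by -0.06 SD units (adjusted p = 0.666, exact permutation test, n = 6 per region), whereas the difference between cortex and striatum was 1.97. Scn2a and Scn3a are neighbours on chromosome 3, transcribed away from each other, and their upstream sequences are shown because their RNA took opposite orders beside shared TAPEs. These are the 250 bases before the RefSeq start in assembly GRCr8, on the strand of each gene, at chr3:70666199-70666448 (minus strand) for Scn3a and chr3:70710706-70710955 (plus strand) for Scn2a, in lower case since neither holds a GC box (GGGCGG or CCGCCC).
Scn3a: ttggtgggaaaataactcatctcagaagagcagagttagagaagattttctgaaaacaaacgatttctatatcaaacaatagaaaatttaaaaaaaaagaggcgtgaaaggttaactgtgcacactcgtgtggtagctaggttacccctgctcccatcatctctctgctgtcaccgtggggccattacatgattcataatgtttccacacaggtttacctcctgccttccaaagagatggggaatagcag
Scn2a: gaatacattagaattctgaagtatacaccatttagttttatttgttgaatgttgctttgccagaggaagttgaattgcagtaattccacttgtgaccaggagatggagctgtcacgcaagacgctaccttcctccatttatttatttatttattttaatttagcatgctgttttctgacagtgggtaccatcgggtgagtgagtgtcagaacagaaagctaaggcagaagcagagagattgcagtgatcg
G and C made up 41.6% and 39.6% of these sequences, against a median of 51.2% over the 33469 upstream windows of the same length in the reference, and 30.5% of those windows hold a GC box.

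Scn8a, which encodes the sodium channel of mature axon initial segments and nodes, was highest in hippocampus (0.63 to 1.98, median 1.23), followed by cortex (-0.54 to 0.44, median -0.31) and striatum (-1.25 to -0.58, median -0.92). All 3 differences passed the test, with 2.20 SD units between hippocampus and striatum. Scn7a, a sodium-sensing member of the family, and Scn4a, the skeletal muscle subunit, had that order too, with hippocampus 2.31 and 2.24 SD units above striatum. Scn9a, the subunit of pain-sensing neurons, was the alpha subunit gene that peaked in cortex. It ranged from 0.76 to 1.76 there (median 1.12), from -0.30 to 0.15 in striatum (median -0.14) and from -1.30 to -0.96 in hippocampus (median -1.11), with no overlap. Scn10a and Scn11a, subunits of sensory neurons, passed no comparison between regions. The Scn10a profile had the same lowest value, -0.67, in each region and as its hippocampal median, which may mean no reads.

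The sodium channel beta subunits mostly peaked in hippocampus. Scn2b lay between 1.18 and 1.63 SD units in hippocampus (median 1.36), between -0.80 and -0.10 in striatum (median -0.45) and between -0.95 and -0.80 in cortex (median -0.90), with 2.27 SD units between hippocampus and cortex, and Scn3b was 2.21 SD units higher in hippocampus than in striatum. Scn4b was lower in striatum (-1.53 to -0.23, median -1.39) than in cortex (0.19 to 1.60, median 0.67) and hippocampus (-0.08 to 1.05, median 0.63), whose difference of 0.21 SD units was within their spread (adjusted p = 0.575, exact permutation test, n = 6 per region).

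Of the 10 calcium channel alpha1 genes, 6 were higher in hippocampus than in striatum and none lower. The T-type genes, which encode channels opened by small depolarizations, all were lowest in striatum. Cacna1g ran from -1.29 to -1.14 there (median -1.21), from 0.10 to 0.51 in cortex (median 0.36) and from 0.70 to 1.45 in hippocampus (median 1.05). Cacna1h took the same order with 2.32 SD units between hippocampus and striatum, while Cacna1i did not differ detectably between cortex and hippocampus (medians 0.60 and 0.78, adjusted p = 0.702, exact permutation test, n = 6 per region) and 1.94 SD units lower in striatum than in cortex. The presynaptic channel genes Cacna1a (P/Q type) and Cacna1b (N type) were also lowest in striatum, without overlap for Cacna1b and with overlap for Cacna1a, whose call between hippocampus and striatum passed in 7 of 13 fits without 1 library (adjusted p up to 0.0612, exact permutation test). Cacna1c, an L-type gene, was highest in hippocampus (median 1.23) and lowest in cortex (median -0.96). Cacna1d, Cacna1e, Cacna1f and Cacna1s passed no comparison between regions. For Cacna1f, libraries of each region shared the same lowest value, which may mean no reads.

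The auxiliary calcium channel genes divided between the regions. Cacna2d2, an alpha2delta subunit, was the most clear-cut striatal gene of the set, with libraries from 1.18 to 1.38 SD units in striatum (median 1.25), -0.69 to -0.64 in cortex (median -0.66) and -0.84 to -0.80 in hippocampus (median -0.82). Cacna2d3 was instead low in cortex (-1.67 to -1.20, median -1.42) and did not differ detectably between hippocampus and striatum (0.07 SD units, adjusted p = 0.626, exact permutation test, n = 6 and 7). Of the beta subunits, Cacnb4 was highest in striatum (median 1.26, 2.13 SD units above hippocampus) and Cacnb3 in cortex (median 0.99, 2.23 above striatum). Cacnb1 was higher in striatum (median 1.09) than in cortex (median -0.96) and hippocampus (median -0.34), and Cacnb2 was highest in hippocampus.

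The Cacng genes, several of which encode AMPA receptor regulators, were as divided. Cacng2 and Cacng8 were high in hippocampus, with medians of 1.40 and 1.41 SD units, and were 2.17 and 2.16 SD units higher there than in striatum. Cacng3 and Cacng5 were high in striatum, with libraries from 0.97 to 1.44 and from 0.97 to 1.42, and below -0.5 in every library of cortex and hippocampus. Cacng4 was high in cortex, from 0.90 to 1.85 (median 1.37), and the highest library of the other regions read -0.25. Cacng6, expressed in muscle, was highest in hippocampus (median 1.06), Cacng7 was lower in cortex (median -0.82) than in hippocampus (0.50) and striatum (0.57), and Cacng1 passed no comparison. Libraries of cortex and hippocampus shared the lowest Cacng1 value, -0.98, which may mean no reads.

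KCl for 1 h was tested on the profiles with libraries exchanged only within their region. Of the 39 channel genes 13 fell (14.7% of all genes did) and Cacng3 rose (5.97% of all genes rose), all 14 with the same direction in each region. In cortex the direction rested on vehicle replicate 3, the library with the striatal tissue label, for 4 of the 14 (Cacna1b, Cacna1d, Cacna2d3 and Cacnb4): without it they were 0.08, 0.28, 0.03 and 0.03 SD units higher with KCl, while the other 10 kept their direction, a comparison chosen after the values were seen. The median difference was -0.20 SD units over channel genes and -0.14 over all genes. Each gene is scaled by its own SD over regions and treatments, so these medians are not on a like scale. Leaving out 1 library left 8 to 16 calls, with 8 without cortex vehicle replicate 3 or without hippocampus KCl replicate 2. No astrocyte, oligodendrocyte or microglia marker passed the KCl test, while 5 of 6 GABAergic markers rose, and the part of the latter in the channel values was not tested.

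Scn1a, Scn2a and Scn3a were the sodium channel alpha genes that fell. Scn1a in striatum read 1.45, 1.46, 1.30 and 1.20 SD units in vehicle and 1.00, 1.05 and 0.76 in KCl libraries, which did not overlap. Its mean difference was -0.25 over all regions (adjusted p = 0.0111) and -0.15, -0.19 and -0.42 in cortex, hippocampus and striatum. For Scn3a the difference was -0.30 (adjusted p = 0.0196), and for Scn2a -0.17 (adjusted p = 0.0156). Scn1a, Scn3a and Cacna1d passed without any 1 of the 19 libraries, whereas Scn2a did not pass without any 1 of the cortex vehicle libraries (largest adjusted p = 0.0611). Scn8a had a difference of -0.39 and missed the threshold (adjusted p = 0.052).

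Among the calcium channel genes Cacna1b, Cacna1c, Cacna1d and Cacna1g fell, by 0.70, 0.39, 1.22 and 0.20 SD units. Cacna1d, an L-type gene, had differences of -0.43, -1.76 and -1.48 in cortex, hippocampus and striatum, of which the first turned to 0.28 without cortex vehicle replicate 3 (1.17 SD units, against -0.72 and -1.19 in the other vehicle libraries) (adjusted p = 0.0196 over all regions). Cacnb2, Cacnb4, Cacng2, Cacng4, Cacna2d3 and the sodium channel gene Scn2b fell too. Cacnb2 and Cacna2d3 depended on most libraries, since they passed in 7 and 6 of 19 fits without 1 library. Cacng3 rose by 0.09, 0.12 and 0.16 SD units in cortex, hippocampus and striatum (adjusted p = 0.0199), a change that is small beside its difference of 2.04 between cortex and striatum, and it did not pass without striatum KCl replicate 5 or 7.

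Of 52 other genes of the channel pathway, such as anchors, inhibitors, calcium pumps and release machinery, 45 had a profile, of which 5 rose (11.1%, 5.97% of all genes) and 15 fell with KCl (33.3%, 14.7% of all genes). Gem and Rem2, small GTPases that inhibit calcium channels, rose by 1.75 and 0.70 SD units (adjusted p = 0.00187 for both, exact permutation test). The calcium pump genes Atp2b1 and Atp2a2 and the release gene Snap25 rose as well, while the pump gene Atp2b2 fell by 0.50. Ank3 and Nfasc, which anchor sodium channels at the axon initial segment, fell by 1.10 and 0.66 SD units (adjusted p = 0.0206 and 0.0141, exact permutation test), and Fgf12, whose product binds sodium channel tails, fell by 0.83. Between hippocampus and striatum 19 of the 45 were higher in hippocampus (42.2%, 30.0% of all genes) and 17 lower (37.8%, 30.1%). Between cortex and hippocampus 10 were higher in cortex (22.2%, 20.4%) and 16 lower (35.6%, 21.2%), and between cortex and striatum 17 were higher in cortex (37.8%, 26.6%) and 18 lower (40%, 26.4%).

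The TAPEs near channel genes were then compared between regions with treatments pooled. Of the 13 tested TAPEs 6 passed (46.2%), close to the share of 48.8% over all 1870 tested TAPEs. Values are log2(CPKM + 0.05) where a difference is given, a scale that understates the change of low TAPEs.

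The TAPE with the largest regional contrast lay upstream of Cacna2d2, at chr8:116118656-116121742, 34.5 kb from its start. In striatum it had a CPKM of 0.0537 to 0.302 (median 0.131), against 0.00474 to 0.0436 in cortex (median 0.0302) and 0 to 0.034 in hippocampus (median 0.0145). No striatal library overlapped the others. The difference from striatum was -1.39 ± 0.26 in cortex (SE, adjusted p = 8.08e-05) and -1.59 ± 0.26 in hippocampus (adjusted p = 8.93e-06). Its RNA and that of Cacna2d2 were thus high in the same region, and their global r, the Pearson correlation over all 19 libraries, was 0.785. Within single regions r was 0.159 (cortex), -0.555 (hippocampus) and 0.425 (striatum).

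A TAPE upstream of Cacna1f, an L-type gene of the retina, at chrX:15790436-15792240, was also highest in striatum, at 0.126 to 0.525 CPKM (median 0.344), against 0.131 to 0.235 in cortex (median 0.172) and 0.0369 to 0.229 in hippocampus (median 0.136). The lowest striatal library, a KCl culture, lay within the range of the other regions. Cacna1f itself passed no comparison between regions, and the global r of the pair was -0.17. The Cacna1f profile had the same lowest value, -0.86 SD units, in each region and as its striatal median. Such a shared value may mean no reads, so little can be read from either result. The TAPE at chr8:49602840-49605082, downstream of Scn2b and Scn4b, was highest in striatum (0.0462 to 0.286, median 0.108), where it exceeded hippocampus by 0.96 ± 0.27 (SE, adjusted p = 0.00449). Scn4b RNA was lowest in that region, and the global r of this pair, -0.67, was the lowest of the 15 pairs with a tested TAPE.

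Other called TAPEs peaked elsewhere. At chr10:14941439-14943140, upstream of Cacna1h, cortex had 0.0593 to 0.367 CPKM (median 0.192), hippocampus 0.0416 to 0.142 (median 0.0702) and striatum 0.0217 to 0.103 (median 0.0666). The vehicle libraries of cortex stood highest, and Cacna1h RNA itself peaked in hippocampus, with a global r of 0.0582. At chr3:52731983-52734283, between Scn9a and Scn7a, the TAPE was lowest in hippocampus (0.0152 to 0.0599, median 0.0428) and had medians of 0.16 in cortex and 0.075 in striatum. It was 1.04 ± 0.28 higher in cortex than in hippocampus (SE, adjusted p = 0.00886), and voom on the recovered reads gave an adjusted p of 0.0513 for its region test. Each of the 6 TAPEs passed the region test without any 1 of the 19 libraries, cortex vehicle replicate 3 included.

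**Figure D2:**
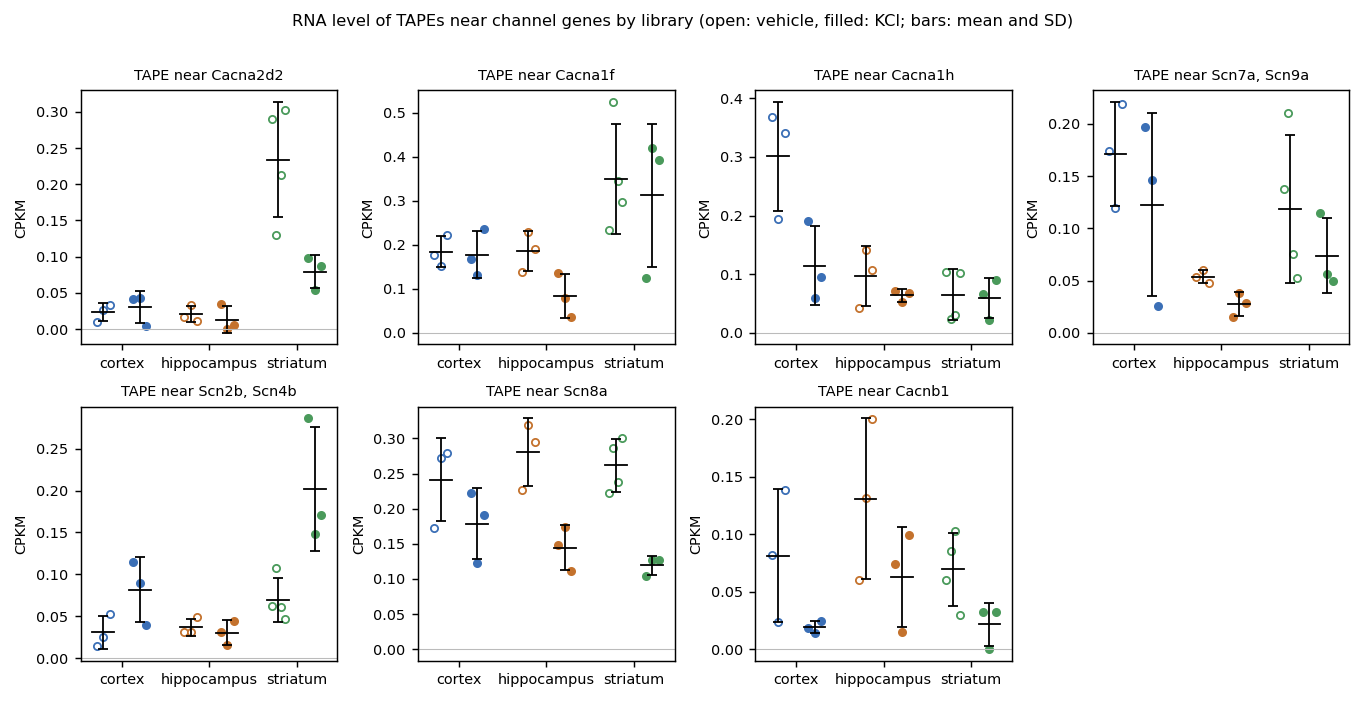
CPKM of 7 TAPEs near channel genes in each library, by region and treatment (open circles vehicle, filled circles KCl, bars mean and SD of 3 or 4 libraries). The TAPE near Cacna2d2 is above 0.05 CPKM in each striatal library and below it in the rest, and the TAPE near Scn8a is lower with KCl in hippocampus and striatum without overlap.

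Between single regions 3 of the 13 TAPEs differed for cortex and hippocampus (14.9% of all tested TAPEs), 4 for cortex and striatum (33.3%) and 4 for hippocampus and striatum (43.0%). Of these, 4 depended on single libraries: Cacna1h between cortex and hippocampus passed in 11 of 19 fits without 1 library, Cacna1f between cortex and striatum in 10, the Scn9a TAPE between hippocampus and striatum in 7, and the Scn2b and Scn4b TAPE between cortex and striatum in 6, with adjusted p up to 0.132. Without the minimum of 0.05 CPKM, 21 of the 136 TAPEs passed the region test (15.4%), against 7.36% of all 27538. This wider set was described after the values were seen, and 11 of its 21 members were highest in striatum, 7 in hippocampus and 3 in cortex. The same split over all TAPEs that passed is not given here, so these counts cannot be read as a trait of TAPEs near channel genes.

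Several of these low TAPEs were read in few regions. The TAPE at chr10:85859755-85861579, downstream of Cacnb1, had 72 of its 81 reads in the 7 striatal libraries, at 0.0315 to 0.151 CPKM, and no other library exceeded 0.0194 (adjusted p = 8.34e-07, limma with no minimum). Downstream of Cacng3, the TAPE at chr1:192720861-192722313 held 41 of 51 reads in striatum. Downstream of Cacng5, the TAPE at chr10:96114253-96116317 held all of its 32 reads in striatum, an even number in each library. Cacnb1, Cacng3 and Cacng5 RNA was highest in striatum too, with a global r of 0.635, 0.791 and 0.713. The TAPE near Cacng5 is also within 200 kb of Cacng4 and Cacng1, with a global r of -0.468 and 0.00514, and Cacng4 RNA was lowest in striatum.

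In hippocampus the TAPE at chr1:64200321-64202144, downstream of Cacng6 and Cacng8, held 42 of 51 reads, and its global r was 0.748 with Cacng6 and 0.915 with Cacng8, the highest of all 183 pairs. The TAPE at chr7:142487412-142489574, upstream of Scn8a, held 30 of 36 reads there, 10 of them in a single KCl library while the remaining KCl libraries of hippocampus had none. The TAPE at chr8:44098811-44101198 went against its gene: it held 63 reads in striatum, 36 in cortex and 2 in hippocampus, where Scn3b RNA was highest (global r -0.701). At chr19:25445707-25447140, upstream of Cacna1a, striatum held 1 read of 42.

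The neighbours Scn2a and Scn3a share the TAPE at chr3:51514035-51515923. It held 24 of its 32 reads in striatum, 6 in hippocampus and 2 in cortex, and its median in striatum was 0.0213 CPKM. Its global r was 0.646 with Scn3a, the highest of the 10 genes within 1 Mb, and -0.726 with Scn2a, the lowest of them. Reads were found in 1 of 6 cortex and 3 of 6 hippocampus libraries, too few to read a correlation within those regions.

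**Figure D3:**
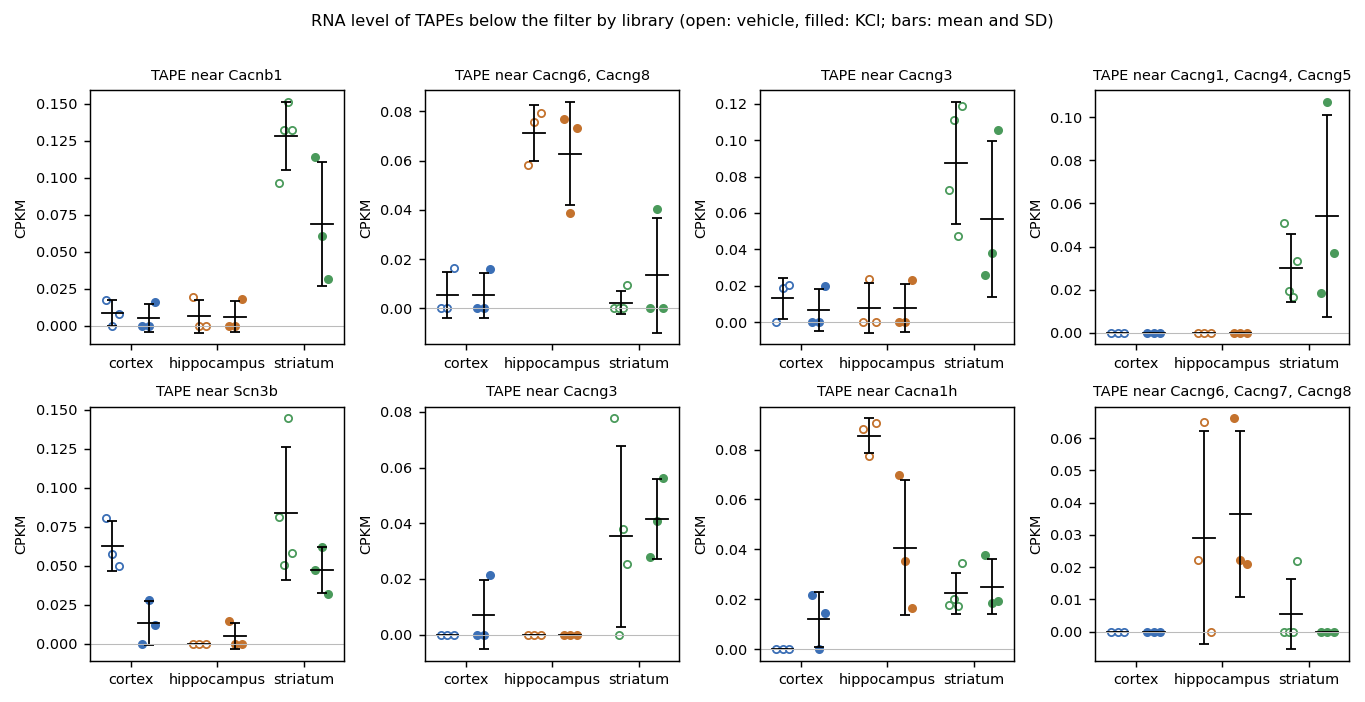
CPKM of the 8 TAPEs near channel genes with a mean below 0.05 CPKM and the lowest adjusted p between regions, by region and treatment (open circles vehicle, filled circles KCl, bars mean and SD of 3 or 4 libraries). The TAPEs near Cacnb1, Cacng3 and Cacng5 read highest in striatum, those near Cacng6 and Cacng8 and near Cacna1h in hippocampus.

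No TAPE near a channel gene passed the KCl test within a region, where 0.321% of all tested TAPEs passed in cortex, 0.0535% in hippocampus and 1.23% in striatum. At an unadjusted p under 0.05 there were 2, 4 and 4 of the 13, and 195, 249 and 282 of all 1870. The test of a KCl effect that differs between regions called none of the 13 and 0.0535% of all, with 3 of 13 and 154 of 1870 at an unadjusted p under 0.05. Voom on the recovered reads called 2 in striatum, near Scn8a and Cacna2d2.

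The TAPE with the lowest adjusted p for KCl over all regions lay upstream of Scn8a, at chr7:142513284-142517644. It was the longest of the 136, at 4361 bp, and lay 60.2 kb from the start of Scn8a. In striatum it read 0.222, 0.286, 0.237 and 0.301 CPKM in vehicle and 0.104, 0.127 and 0.127 in KCl libraries. In hippocampus it read 0.227, 0.320 and 0.295 in vehicle and 0.149, 0.174 and 0.111 in KCl libraries. Vehicle and KCl did not overlap in these regions, whereas in cortex 0.173, 0.272 and 0.279 in vehicle overlapped 0.222, 0.123 and 0.191 with KCl.

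The differences were -0.35 (cortex), -0.77 (hippocampus) and -0.87 (striatum) (adjusted p = 0.0748 in striatum). A fit of all 19 libraries with region as a covariate, chosen after these values were seen, gave -0.67 ± 0.15 (SE, adjusted p = 0.00394), and -0.54 with each library centred on its median (adjusted p = 0.0256). It passed without any 1 of the 19 libraries (largest adjusted p = 0.0106). In that fit 6.84% of all tested TAPEs passed, and 2 of the 13 were lower with KCl (5.19% of all) and none higher (1.66%). Of all calls 31 of 128 were higher, against 47 of 84 with libraries centred on their median, where 1 of the 13 was higher (near Scn2b and Scn4b) and 1 lower, and voom called 1 higher and 2 lower. Before centring, the median over all tested TAPEs was -0.13.

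The TAPE and Scn8a RNA went together within each region, with r of 0.686 (cortex), 0.72 (hippocampus) and 0.72 (striatum) over 6, 6 and 7 libraries (which share vehicle and KCl cultures), but with a global r of 0.285. The TAPE did not pass the region test (adjusted p = 0.941), with means of 0.210 ± 0.060 CPKM in cortex (SD, n = 6), 0.213 ± 0.083 in hippocampus (n = 6), next to 0.201 ± 0.081 in striatum (n = 7), while Scn8a RNA peaked in hippocampus. The upstream 250 bases of Scn8a (chr7:133860977-133861226, plus strand) and Cacna2d2 (chr8:116950856-116951105, plus strand) in GRCr8 are shown because their nearby TAPEs carry the clearest KCl and region differences, with GC boxes (GGGCGG or CCGCCC, either strand) in capitals.
Scn8a: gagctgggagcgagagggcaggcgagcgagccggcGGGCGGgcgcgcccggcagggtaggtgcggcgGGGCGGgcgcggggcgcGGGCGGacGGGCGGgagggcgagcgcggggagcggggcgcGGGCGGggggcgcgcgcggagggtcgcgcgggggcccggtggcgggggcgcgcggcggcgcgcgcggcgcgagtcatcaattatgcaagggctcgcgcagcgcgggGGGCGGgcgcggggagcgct
Cacna2d2: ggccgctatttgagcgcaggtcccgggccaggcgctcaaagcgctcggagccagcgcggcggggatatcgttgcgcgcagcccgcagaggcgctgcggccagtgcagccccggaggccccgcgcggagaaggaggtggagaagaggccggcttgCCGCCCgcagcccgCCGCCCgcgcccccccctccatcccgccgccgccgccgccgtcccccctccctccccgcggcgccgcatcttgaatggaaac
These hold 6 and 2 GC boxes, with 86% and 76.8% G and C. Of the 40 channel genes 27 matched the reference by symbol, with 30 windows, and 15 of the 30 (50.0%) hold a GC box, against 30.5% of all 33469 windows. The channel windows were also richer in G and C, with a median of 63% against 51.2% over all windows. Some genes have several windows, and those of Cacna2d1 partly overlap. The TATA box TATAAA was in 2 of 30 windows and 12.9% of all, and the core TGACG of the cyclic AMP response element in 5 of 30 and 18.2% of all, on either strand. A match is a stretch of letters and not a shown binding site, and RefSeq starts may differ from those of the deposited table, which is in assembly Rn6.

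The second TAPE called in the fit over all regions lay downstream of Cacnb1, at chr10:85796856-85798032. Its mean was 0.0813 ± 0.0577 CPKM in vehicle and 0.0192 ± 0.0053 with KCl in cortex (SD, n = 3 each), and its values overlapped between treatments in each region. The difference was -0.75 ± 0.21 (SE, adjusted p = 0.0263), and 84 reads stood behind the TAPE in all. It did not pass without cortex vehicle replicate 3, hippocampus vehicle replicate 3, hippocampus KCl replicate 2 or striatum KCl replicate 5 (largest adjusted p = 0.0682), nor with centred libraries (adjusted p = 0.0781) or voom (0.0941).

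Other KCl values were large in single regions. The Cacna2d2 TAPE in striatum read 0.291, 0.131, 0.212 and 0.302 CPKM in vehicle and 0.0979, 0.0537 and 0.0869 in KCl libraries, without overlap, a difference of -1.10 ± 0.29 (SE, adjusted p = 0.0967). The TAPE near Scn2b and Scn4b went the other way in striatum, from 0.0628, 0.108, 0.0615 and 0.0462 in vehicle to 0.286, 0.148 and 0.171 with KCl, 1.06 ± 0.30 (SE, adjusted p = 0.128). The Cacna1h TAPE in cortex had 0.367, 0.194 and 0.340 CPKM in vehicle and 0.190, 0.0593 and 0.0945 with KCl, a difference of -1.13 ± 0.33 (SE, adjusted p = 0.207). None of these passed the threshold. Vehicle and KCl libraries did not overlap in any of them, but groups of 3 or 4 libraries can separate in this way by chance. The share of all tested TAPEs without overlap is not given here. In hippocampus the TAPEs near Cacna1f and Scn9a (lower with KCl) and Scn2a (higher) did not overlap either.

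**Figure D4:**
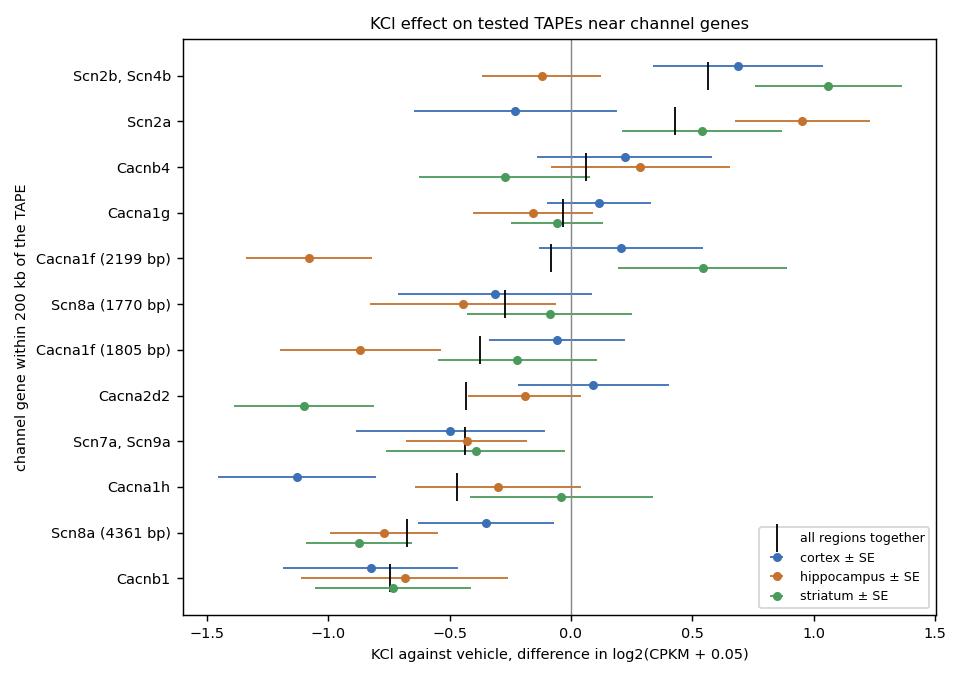
KCl against vehicle at 12 of the 13 tested TAPEs, as the difference in log2(CPKM + 0.05) with its SE in each region, and the value over all regions (black bar). The TAPEs near Scn8a (4361 bp) and Cacnb1 lie below 0 in all 3 regions, and the TAPE near Scn2b and Scn4b has the highest value over all regions, 0.57.

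Over all 183 pairs the deposited global r had a median of 0.103 (quartiles -0.17 and 0.332), against 0.0263 over the 73453 other pairs under 200 kb. An r above 0.5 was found in 25 channel pairs (13.7%) and 6.62% of other pairs, and one under -0.5 in 3 (1.64%) and 2.16%. The 25 pairs belonged to 15 of 37 genes, with 4 each for Cacna2d2 and Cacng3. Pairs share TAPEs, genes and libraries, so no test was made. In pairs whose TAPE was tested the order of the medians differed, with -0.17 over 15 channel pairs and 0.0673 over 8362 others. The share above 0.5 kept its order there, with 3 of the 15 channel pairs (20%) and 14.2% of the others.

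By subunit class, alpha2delta pairs had the highest median (0.214, n = 14), followed by gamma (0.202, n = 54), calcium channel beta (0.0786, n = 15), sodium channel alpha (0.0538, n = 54), calcium channel alpha1 (-0.0413, n = 31) and sodium channel beta (-0.125, n = 15). Within regions the medians were 0.125 (cortex), 0.111 (hippocampus) and -0.00904 (striatum), against -0.0062, 0.0037 and 0.00987 for other pairs, each over the 6 or 7 libraries of the region. The mean of the 3 regional values exceeded 0.5 in 5.61% of 107 channel pairs and 3.52% of 43819 others. Beyond 200 kb and up to 1 Mb the share above 0.5 was 4.12% for channel genes and 5.0% for others.

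Among pairs with a tested TAPE, Cacna2d2 (0.785) and Scn9a (0.756) had the highest global r, and values above 0 were also found for Scn8a (0.285), Cacnb4 (0.211) and Cacna1h (0.0582). The Scn9a pair kept a positive r within each region, 0.871 (cortex), 0.744 (hippocampus) and 0.504 (striatum), and Scn9a was both the nearest and the best correlated of the 7 genes within 1 Mb of its TAPE. The same TAPE had r of -0.324 with Scn7a, its other neighbour. The lowest values were those of Scn4b (-0.67), Scn2a (-0.465) and Cacna1g (-0.407).

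A channel gene was the best correlated gene of its TAPE in 14 of 183 pairs (7.65%, 7.80% for other pairs) and the nearest in 46 (25.1%, 26.5%). Just inside the limit of 200 kb lay pairs of Scn3a at 198177 and 198124 bp and of Cacna1d at 198121 bp, with global r of -0.0505, -0.289 and 0.0551. Just outside lay pairs of Cacna2d4 at 200343 bp and of Scn2a at 201101 and 203085 bp, with 0.171, -0.299 and 0.235.

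**Figure D5:**
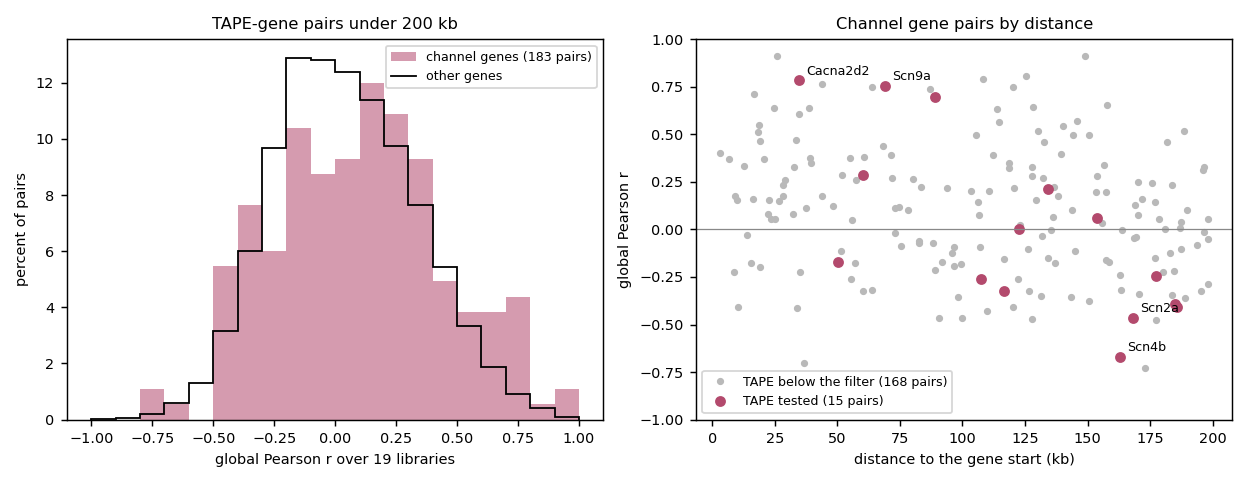
Global Pearson r over 19 libraries for TAPE-gene pairs under 200 kb. Left, percent of channel pairs (filled) and other pairs (line) by r in steps of 0.1, and right, r of the channel pairs against the distance to the gene start in kb, with tested TAPEs in colour. The channel pairs reach further to the right, 13.7% above 0.5 against 6.62%.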

How the data were processed

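Per the labels and the study's methods, the authors trimmed reads with Trim Galore 0.4.5, aligned them to rn6 with STAR, processed alignments with SAMtools 1.9 and quantified TAPEs in SeqMonk. The deposited RPKM values (CPKM) are reads per kilobase of TAPE, scaled by the authors to the reads of each library. The deposited score values are Pearson correlations that the authors computed between TAPE and gene CPKM, over all 19 libraries or those of a region.

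The members and lists were chosen with earlier results of these data known. TAPEs whose mean reached 0.05 CPKM were tested with limma 3.58.1 in R 4.3.3 (two-sided, trended variance) on log2(CPKM + 0.05), adjusted by Benjamini-Hochberg over all 1870 tested TAPEs at a threshold of 0.05. Reads were recovered as whole numbers (tolerance 0.001) for voom. Gene levels were not used here. Each gene profile was solved from its deposited correlations with TAPEs, for 16733 of 17715 symbols (largest error in r 1.3e-14), and tested by exact two-sided permutation with Benjamini-Hochberg adjustment over the 16733. All adjusted p of genes are from this exact permutation test and those of TAPEs from limma. Scripts were tested on simulated data. Libraries were not paired by replicate number in the main tests. Genes were named if called in at least 2 region comparisons or with KCl, TAPEs if called, and pairs as the 6 highest and 3 lowest r with a tested TAPE. TAPEs below the minimum, the KCl fit over all regions and the promoter motifs were chosen after values were seen. Alternatives covered the pseudocount, minimum, centring, voom, covariates, distance, correlation type and left-out libraries. Some members are counted in totals but not reported here by name.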

Additional observations from a re-analysis of the deposited data

Results flagged for a closer look

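Of 42 values of channel genes and TAPEs examined in the 4 striatum vehicle libraries, 2 had a library far from the rest by Dixon's test, which flags about 1 in 20 groups by chance. For Cacna1a, replicate 8 read -0.0976 SD units and its nearest neighbour -0.856, a gap of 0.944 of the group's range. For Cacna1g, replicate 6 read -1.22 and its nearest neighbour -1.14, a gap of 0.948 of a narrow range. The limit for 4 libraries is 0.829. Which causes apply was not tested.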

How the results depend on the processing

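Of the counts of TAPEs and genes and the shares of pairs recomputed under the alternatives, 254 stayed close to the reported value and 25 moved further. Close meant within 1.5 times for counts, which includes counts that were 0 in both. For shares of pairs it meant within the binomial interval of the reported share, which treats pairs as independent although they are not. No called TAPE or gene changed direction in these fits. The median r of channel pairs was above that of other pairs (0.103 and 0.0263) but below it for tested TAPEs (-0.17 and 0.0673). The cause of the moves was not tested, except that the minimum changes which TAPEs are tested. With no minimum CPKM, 136 TAPEs were tested and 21 passed the region test, 6 differed between cortex and hippocampus, 9 between cortex and striatum, 15 between hippocampus and striatum and 0 for KCl over all regions. With a minimum of 0.1 CPKM, 6 were tested, and 3 passed the region test, 2 between cortex and striatum, 1 between hippocampus and striatum and 1 for KCl over all regions. Voom called 2 for KCl in striatum. Vehicle libraries alone left 1 between cortex and hippocampus, and a pseudocount of 0.01 left 2 between cortex and striatum. The share of channel pairs with r above 0.5 was 8.62% under 500 kb (5.69% of other pairs). It was 20% of 15 pairs with tested TAPEs (14.2% of others) and 5.61% for the mean of the 3 regional values (3.52% of others). Leaving out 1 library gave 2 to 4 TAPEs between cortex and striatum, 1 to 2 for KCl over all regions and 8 to 16 genes for KCl.

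Same-numbered vehicle and KCl libraries showed no shared deviation (correlations from -0.0418 to 0.0142). Tested TAPEs can hold few reads per library, so this cannot decide whether the numbers pair the libraries. With the replicate number as a block, 0 TAPEs passed for KCl in cortex, 0 in hippocampus and 2 between cortex and hippocampus, without that near Cacna1h. Striatum vehicle and KCl libraries share no number. Low read counts limit most of the 136 TAPEs, and KCl tests of genes within 1 region cannot reach the threshold.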
